A study of Mus musculus with 3 samples.

Results

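Cluster 1 is a group of inhibitory neurons of the adult mouse olfactory bulb, and its members are the nuclei that carry the number 1 in the deposited cluster column. It held 4754 of the 31703 nuclei retained from 3 mice, 792 from mouse 1, 3423 from mouse 2 and 539 from mouse 3. All 3 animals were adult C57Bl/6 mice that had received a retrogradely transported virus, retroAAV-CAG-H2B-GFP, at several sites of the piriform cortex (PCx) and the anterior olfactory nucleus (AON), and their olfactory bulbs were profiled by single-nucleus RNA sequencing after sorting for GFP and a DNA dye. There was no untreated group and no other condition. The sort was built to enrich projection neurons, which send axons to the injected areas, whereas granule cells have no axon, so inhibitory nuclei in these libraries passed a gate that was not designed for them and their shares are not shares of the tissue. Cluster 1 was therefore described against the other 7 inhibitory clusters (0, 3, 6, 7, 8, 10 and 12) of the same sort.

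Inhibitory neurons are the most numerous neurons of the olfactory bulb. Granule cells lie deep, release GABA through reciprocal synapses between dendrites and shape the output of mitral and tufted cells, while periglomerular cells surround the glomeruli where sensory axons end. Both kinds are renewed in adult life by cells that migrate in from the wall of the lateral ventricle, and granule cells in particular are known for many subtypes that differ in depth, birth date and gene expression. Calcium entry is central to how they release transmitter, and calcium/calmodulin kinases such as Camk4 carry the calcium signal to the nucleus, where CREB is a known substrate.

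The label was checked against its markers. The glutamate decarboxylase gene Gad1 stood at 527, 559 and 462 CPM (UMIs of the summed nuclei, scaled to the same total in each library) in cluster 1 of mice 1, 2 and 3, and Meis2, a homeobox factor of granule cells and other bulb interneurons, at 3623, 3259 and 3252 CPM. After drawing 2000 UMIs from each nucleus, Meis2 was seen in 98.9% ± 0.586 (SD, n = 3 mice) of the nuclei of cluster 1 and Gad1 in 57.8% ± 4.64. Both genes were also seen in other cells, Meis2 in 59.7%, 75.5% and 62.3% of the thinned nuclei of cluster 9, the astrocytes, and Gad1 in 7.56%, 15.6% and 6.83% of those of cluster 5, so the share with Meis2 alone does not mark a nucleus as an interneuron. Slc17a7, the vesicular glutamate transporter of projection neurons, was seen in 4.35% ± 0.409, close to the share of 4.55% in cluster 0 and below the 44.7% of cluster 5, a projection neuron cluster. None of the 14 inhibitory neuron markers was called higher or lower in cluster 1 than in the mean of the other inhibitory clusters. Against cluster 0 alone 1 of the 14 was called higher and 2 lower, where 4.41% and 1.78% of all genes were, the median log2 fold change was -0.53, and 10 of the 14 were lower in all 3 mice, as were 31.4% of all genes. Of 12 granule cell markers 4 were called higher and 2 lower, and of 11 periglomerular markers 1 was called higher and 5 lower, where 4.57% of all tested genes were called higher and 3.09% lower. The nuclei are inhibitory-neuron-like by their defining markers, with a median log2 fold change of 0.46 for the granule cell list, which holds the marker Camk4, and of -1.02 for the periglomerular list. Against cluster 0 alone this order turned, with medians of -0.03 and 0.23.

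Cluster 1 made up 13.6% of the retained nuclei of mouse 1 (95% exact Clopper-Pearson interval 12.7 to 14.5), 16.2% of mouse 2 (15.7 to 16.7) and 11.3% of mouse 3 (10.5 to 12.3). The mean was 13.7% ± 2.44 (SD, n = 3), and the intervals, which cover counting error only, did not overlap between any pair of mice. Of the nuclei of the 8 inhibitory clusters alone, it took 21.5%, 23.8% and 19.97%, so cluster 1 was the second largest inhibitory cluster after cluster 0, with 7681 nuclei. The median depth in cluster 1 was 7234, 7986 and 9230 UMIs per nucleus in mice 1, 2 and 3, highest in mouse 3, while the summed library of mouse 2 was the deepest and held the most nuclei. Cell barcodes shared between libraries numbered 39, 8 and 35 for the pairs of mice, and 0 of them were in cluster 1 in both. Gad1 was more widespread outside neurons in mouse 2. It was seen in 40.2% of the thinned nuclei of cluster 9, which are astrocytes by Slc1a3, against 19.4% in mouse 1 and 13.1% in mouse 3. Slc17a7 differed less there, at 6.45%, 7.06% and 5.76% in mice 1, 2 and 3. The part of the Gad1 difference in the values that follow was not tested.

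The markers that name the cluster came first. Ankfn1, which encodes a protein with ankyrin repeats and a fibronectin domain, stood at 333, 318 and 401 CPM in the 3 mice. The 21 libraries of the other inhibitory clusters lay between 2.44 and 98.1 CPM, so no library overlapped with cluster 1. The difference was a log2 fold change of 3.74 ± 0.16 (SE) against the mean log level of the other 7 clusters and of 3.65 ± 0.29 against cluster 0. Over all 22 clusters the next highest were clusters 17 and 18, both outside the inhibitory class, with means of 169 and 145 CPM that overlapped with each other but not with cluster 1.

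Camk4 stood at 436, 379 and 383 CPM in cluster 1, and the highest of the other 21 libraries reached 257 CPM. Its log2 fold change was 2.20 ± 0.14, and behind cluster 1 came clusters 10, 12 and 8 with means of 205, 187 and 151 CPM, neighbours in the order whose libraries overlapped. Dnah11, a heavy chain of the dyneins that drive motile cilia, stood at 276, 334 and 266 CPM against at most 151 CPM elsewhere in the class, a log2 fold change of 2.93 ± 0.23. Sv2c, a glycoprotein of synaptic vesicles, stood at 150, 207 and 199 CPM against at most 110 CPM, a log2 fold change of 2.40 ± 0.25. Each of the 4 genes was highest in cluster 1 among all 22 clusters, with no overlap with the next. They differed in which cluster came next, however. Dnah11 and Sv2c were next highest in cluster 0, at 143 and 101 CPM, and against that cluster their log2 fold changes were 1.03 ± 0.36 and 0.88 ± 0.37, neither of which passed the threshold, whereas Camk4, with 2.03 ± 0.23, and Ankfn1 did. Against cluster 10, its own next cluster, Camk4 did not pass either, with 0.98 ± 0.23.

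**Figure D1:**
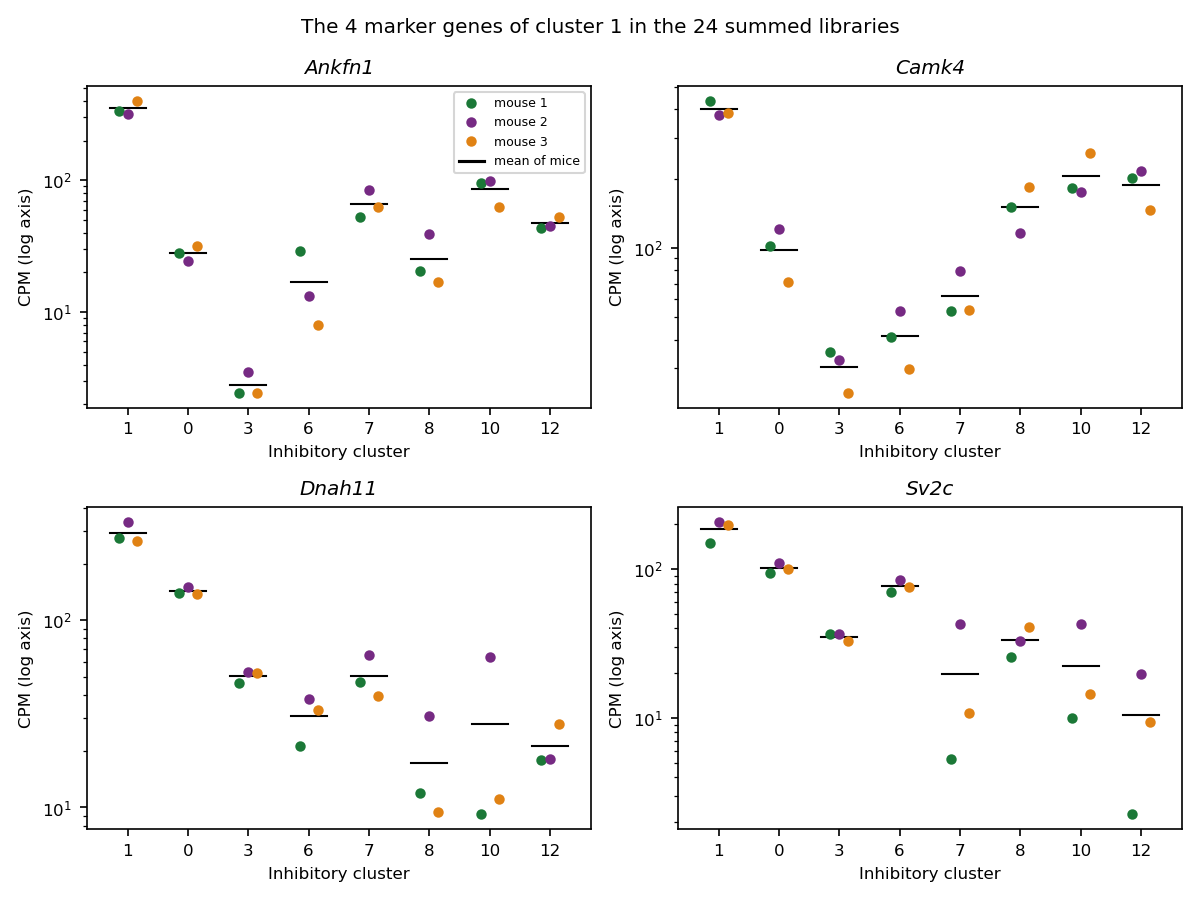
CPM (log axis) of Ankfn1, Camk4, Dnah11 and Sv2c in the 24 libraries, each the summed nuclei of 1 inhibitory cluster of 1 mouse, with points colored by mouse and a line at the mean. For each gene the 3 points of cluster 1 lie above all others, and clusters 10 and 12 follow for Camk4 while cluster 0 follows for Dnah11 and Sv2c.

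Among single nuclei the markers were far from universal. With 2000 UMIs drawn from each nucleus, Camk4 was seen in 43.1% ± 1.49 of the nuclei of cluster 1 (SD, n = 3 mice), Ankfn1 in 33.4% ± 2.52, Dnah11 in 30.7% ± 4.36 and Sv2c in 24.04% ± 3.04. In the projection neurons of cluster 5, which should lack the combination and had medians of 17850 to 20788 UMIs before drawing, the shares were 3.30%, 1.43%, 2.24% and 0.743%. With all UMIs of a nucleus counted, the shares in cluster 1 were 71.4%, 54.6%, 54.5% and 47.7%. At least 2 of the 4 markers were seen in 39.6% ± 1.71 of the thinned nuclei of cluster 1, against 9.41% in cluster 0 and 0.394% in cluster 5. None of the 4 was seen in 21.7% ± 2.46 of the thinned nuclei of cluster 1, a share that fell to 7.37% with all UMIs.

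Clusters were drawn by the authors on these same counts, so the calls below say which differences repeated over the 3 mice and do not test whether the cluster exists. A gene was called at an adjusted p under 0.05 in edgeR's quasi-likelihood test and a log2 fold change beyond 1 in either direction. The mean of the other 7 clusters was the mean of their fitted log levels, with each cluster weighted alike. Where levels differ widely among clusters, it lies below the log of their mean CPM. Such log2 fold changes are therefore not ratios of mean CPM, and a gene called higher can be exceeded by single clusters. Of 14780 genes tested, 676 were called higher in cluster 1 than in the mean of the other 7 clusters (4.57%) and 456 lower (3.09%), or 7.66% in either direction, with a median log2 fold change over all genes of -0.02. All 3 libraries of cluster 1 lay above all 21 others for 145 of the higher genes (0.981% of those tested), and below all others for 38 of the lower genes (0.257%). A smaller set of 33 genes was called higher against each of the 7 clusters taken singly (0.223%), and 7 genes were called lower against each (0.0474%).

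The 12 leading higher genes were taken by fold change among the 137 separated from all other libraries at 5 CPM or more. They were of mixed kinds. Ntn1, the secreted guidance cue netrin 1, stood at 18.8, 11.7 and 13.6 CPM in cluster 1, beside a plain mean of 0.988 CPM over the other inhibitory clusters. Its log2 fold change, against the mean log level, was 4.74 ± 0.37. That value is raised by cluster 12, which held 0 CPM, and was 3.26 ± 0.46 against cluster 0. Ror2, a receptor for Wnt5a, stood at 41.3, 31.9 and 51.5 CPM against at most 12.4 CPM elsewhere in the class, a log2 fold change of 3.57 ± 0.19. Tnc, the matrix glycoprotein tenascin C, stood at 22.7, 9.68 and 13.0 CPM, with mouse 1 highest and a log2 fold change of 3.33 ± 0.33. Outside the inhibitory class these 3 genes and Sox8, a SoxE factor, had higher means: Ntn1 in cluster 19 (58.9 CPM), Ror2 in cluster 18 (55.4 CPM), Tnc in cluster 9 (70.7 CPM) and Sox8 in cluster 19 (270 CPM).

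Tac1, the precursor of substance P and neurokinin A, stood at 27.2, 29.0 and 43.3 CPM in cluster 1, above the 8.86 CPM of the highest other inhibitory library, with a log2 fold change of 3.19 ± 0.31. Trhr, the receptor for thyrotropin-releasing hormone, varied among the animals, at 12.4, 21.8 and 42.2 CPM, but its lowest value still passed the 10.7 CPM of the highest other library, with a log2 fold change of 3.64 ± 0.33. Tac1 and Trhr were highest in cluster 1 among all 22 clusters. Edaradd, an adaptor of the ectodysplasin receptor, was at 7.31, 4.33 and 5.87 CPM with a log2 fold change of 4.16 ± 0.41. This value is raised by clusters 10 and 12, which held 0 CPM of Edaradd. Plk5, a polo-like kinase family member, was at 16.2, 12.3 and 10.8 CPM with 3.21 ± 0.32. Cluster 19, outside the class, had a higher Plk5 mean of 17.6 CPM over libraries of 7.03, 4.89 and 40.8 CPM. Against cluster 0 alone all 4 were called higher too, Trhr by 1.94 ± 0.45, a call that was lost without mouse 2, at 1.80. Of the 137 separated genes 66 had their highest mean over all 22 clusters in cluster 1.

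The remaining leading genes lie side by side on chromosome 3. Pifo, a gene of primary cilia (GRCm38 chr3:105996957-106014646, minus strand), stood at 12.7, 15.9 and 28.1 CPM, with a log2 fold change of 3.60 ± 0.30. Gm42722, annotated by GENCODE as an antisense RNA on the plus strand (chr3:106001561-106017539), stood at 15.9, 18.7 and 38.1 CPM, with 3.61 ± 0.34. Chil5, a chitinase-like gene on the minus strand (chr3:106016919-106032814), stood at 3.02, 3.62 and 11.6 CPM, with 4.03 ± 0.44. All 3 were highest in mouse 3 and were highest in cluster 1 among all 22 clusters. The next genes on the proximal side did not share this pattern: Ovgp1, Wdr77 and Atp5f1 had log2 fold changes of -0.02 ± 0.21, -0.15 ± 0.21 and -0.22 ± 0.20. On the distal side Chia1 was too low to be tested. Gm42722 overlaps with both of its neighbours on the opposite strand, and how reads from introns and from the opposite strand were counted is not given in the sources used here, so these 3 values are not independent. Among the 137 separated genes there were 13 pairs within 50000 bases of each other, of which 9 overlapped, among them Pbx3 with C79798 and Lrp8 with Lrp8os2.

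Promoter windows of 5 of these genes are printed because the genes mark the cluster and differ widely in sequence. Each runs 5′ to 3′ from 250 bases before to 50 bases after the RefSeq start (GRCm38.p6). The capitals mark matches on either strand to TGACAG (a MEIS motif), TAATTA (a DLX motif), TGACG (the core of the CRE that CREB binds), ACAAT (a SOX motif) and GGAAAA (an NFAT motif). The windows are Dnah11 at chr12:118198994-118199293, Sv2c at chr13:96132528-96132827, Pifo at chr3:106014597-106014896 and Chil5 at chr3:106032846-106033145, all on the minus strand, and Tac1 at chr6:7554811-7555110 on the plus strand.
Dnah11: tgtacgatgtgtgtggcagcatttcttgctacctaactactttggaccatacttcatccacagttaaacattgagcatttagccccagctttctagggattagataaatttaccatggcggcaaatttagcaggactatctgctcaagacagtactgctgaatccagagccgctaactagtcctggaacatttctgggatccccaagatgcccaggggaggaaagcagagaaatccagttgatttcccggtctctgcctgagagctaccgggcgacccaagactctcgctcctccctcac
Sv2c: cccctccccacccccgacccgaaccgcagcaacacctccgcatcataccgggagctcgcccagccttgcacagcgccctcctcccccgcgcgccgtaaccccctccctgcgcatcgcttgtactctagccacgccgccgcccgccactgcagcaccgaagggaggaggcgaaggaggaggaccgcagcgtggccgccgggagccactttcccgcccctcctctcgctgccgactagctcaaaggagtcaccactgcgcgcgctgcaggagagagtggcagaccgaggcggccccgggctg
Pifo: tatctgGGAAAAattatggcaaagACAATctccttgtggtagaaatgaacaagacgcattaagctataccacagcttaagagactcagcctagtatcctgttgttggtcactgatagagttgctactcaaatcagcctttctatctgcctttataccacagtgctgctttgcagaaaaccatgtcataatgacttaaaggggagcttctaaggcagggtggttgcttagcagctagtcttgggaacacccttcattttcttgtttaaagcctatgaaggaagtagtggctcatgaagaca
Chil5: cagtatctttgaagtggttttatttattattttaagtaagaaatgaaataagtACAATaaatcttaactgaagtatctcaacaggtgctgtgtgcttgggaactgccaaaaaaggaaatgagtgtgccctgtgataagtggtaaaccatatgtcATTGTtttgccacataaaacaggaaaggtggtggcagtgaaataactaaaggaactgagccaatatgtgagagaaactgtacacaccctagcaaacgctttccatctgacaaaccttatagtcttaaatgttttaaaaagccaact
Tac1: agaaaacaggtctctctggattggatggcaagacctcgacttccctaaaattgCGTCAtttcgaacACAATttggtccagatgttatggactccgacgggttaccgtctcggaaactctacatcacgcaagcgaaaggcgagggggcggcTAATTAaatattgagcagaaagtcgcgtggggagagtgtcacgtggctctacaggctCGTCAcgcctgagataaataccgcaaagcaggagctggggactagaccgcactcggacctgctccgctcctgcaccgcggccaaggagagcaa

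No match was found in Dnah11 or Sv2c, 2 in Pifo (SOX and NFAT), 2 in Chil5 (both SOX) and 4 in Tac1 (1 DLX, 2 CRE core and 1 SOX). Of the 15 genes formed by the 4 markers and the 12 leading genes, which share Ankfn1, a window was at hand for 11. Among those 11, MEIS matched 0, DLX 1, the CRE core 1, SOX 4 and NFAT 3. Over the first window of all 27018 genes in the same table the shares with a match were 19.3% for MEIS, 5.31% for DLX, 21% for the CRE core, 31.6% for SOX and 23.6% for NFAT. GC content separated the windows, with 71.7% in Sv2c and 35.7% in Chil5, and a median of 49.3% over the 11 against 52.7% over all.

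The 12 leading lower genes, taken by the same rule, were of mixed kinds and included RNAs without a named protein product such as Dnm3os. Dusp10, a phosphatase of the stress-activated MAP kinases, stood at 1.11, 2.12 and 1.28 CPM in cluster 1, while the other 21 libraries lay between 3.82 and 49.4 CPM, a log2 fold change of -2.90 ± 0.29. It was called lower against each of the 7 clusters, with -3.42 ± 0.32 against cluster 0. Shisa9, an auxiliary subunit of AMPA receptors, stood at 20.02, 20.4 and 18.9 CPM against 24.7 CPM or more elsewhere, with -2.86 ± 0.18. Nxph1, a secreted ligand of neurexins, stood at 123, 125 and 174 CPM against 226 CPM or more, with -2.69 ± 0.17, and Astn2, which acts in neuronal migration, at 133, 147 and 141 CPM against 313 CPM or more, with -2.53 ± 0.15. In each of these 4 genes all libraries of cluster 1 lay below all others. Ccser1 had the smallest standard error of these genes, at 283, 280 and 291 CPM in cluster 1. Its plain mean over the other clusters was 1785 CPM, with 5766 CPM in cluster 6. Against the mean log level its log2 fold change was -2.13 ± 0.10.

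**Figure D2:**
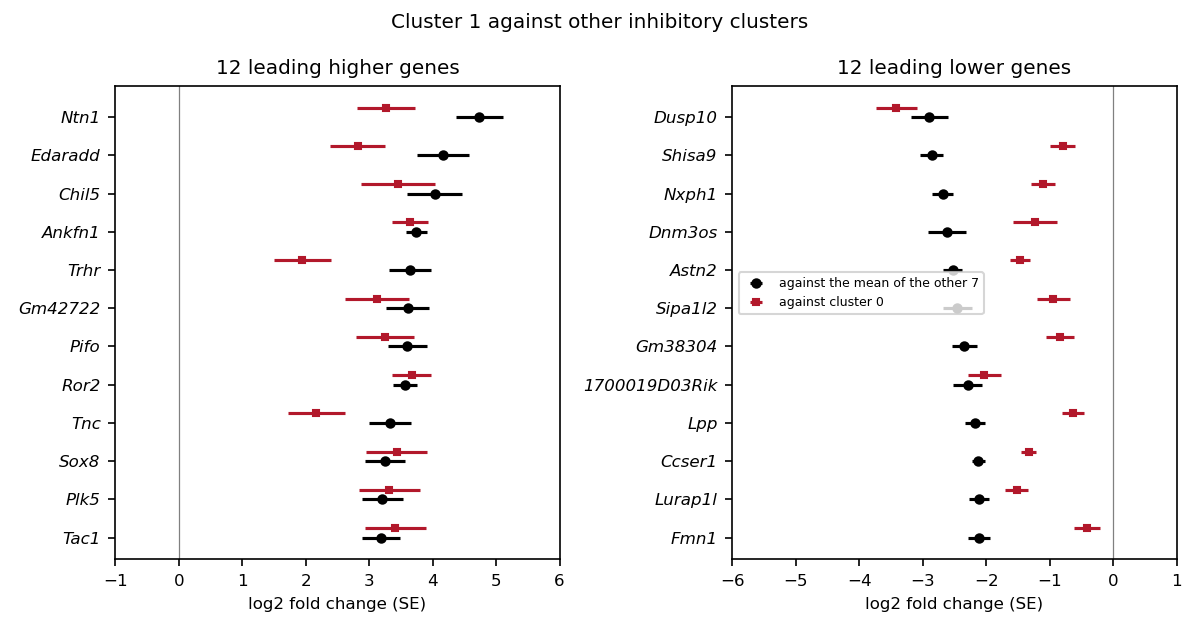
Log2 fold changes with their standard errors of the 12 leading higher and 12 leading lower genes of cluster 1, against the mean of the other 7 inhibitory clusters (circles) and against cluster 0 (squares). The higher genes keep log2 fold changes of 1.94 or more against cluster 0, while the lower genes range from -3.42 for Dusp10 to -0.42 for Fmn1 against it.

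The gene groups were read against the shares of all tested genes called, 4.57% higher and 3.09% lower, and their lists were chosen with earlier results of these data known. Axon guidance held the most calls, with 21 of 47 tested genes higher and 3 lower and a median log2 fold change of 0.91. Potassium and HCN channels followed with 11 of 50 higher and 3 lower. In 8 of the 50, called or not, all cluster 1 libraries were above all others, as they were in 1.4% of all genes. Of 31 genes of the calcium/calmodulin cascade 6 were higher and 1 lower. Neuropeptide receptors had 6 of 23 higher and 2 lower, synaptic adhesion 8 of 52 higher and 4 lower, and monoamine and acetylcholine receptors 6 of 26 higher and 3 lower. Lower calls outnumbered higher ones for receptor tyrosine kinases and their ligands, with 1 of 28 higher and 5 lower, for calcium-binding proteins, with 3 of 19 higher and 5 lower, and for TRP channels and calcium release, with 2 of 19 higher and 4 lower. The same held for GABA and glycine receptors, with 1 of 20 higher and 3 lower, and narrowly for neuropeptides, with 4 of 24 higher and 5 lower.

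**Figure D3:**
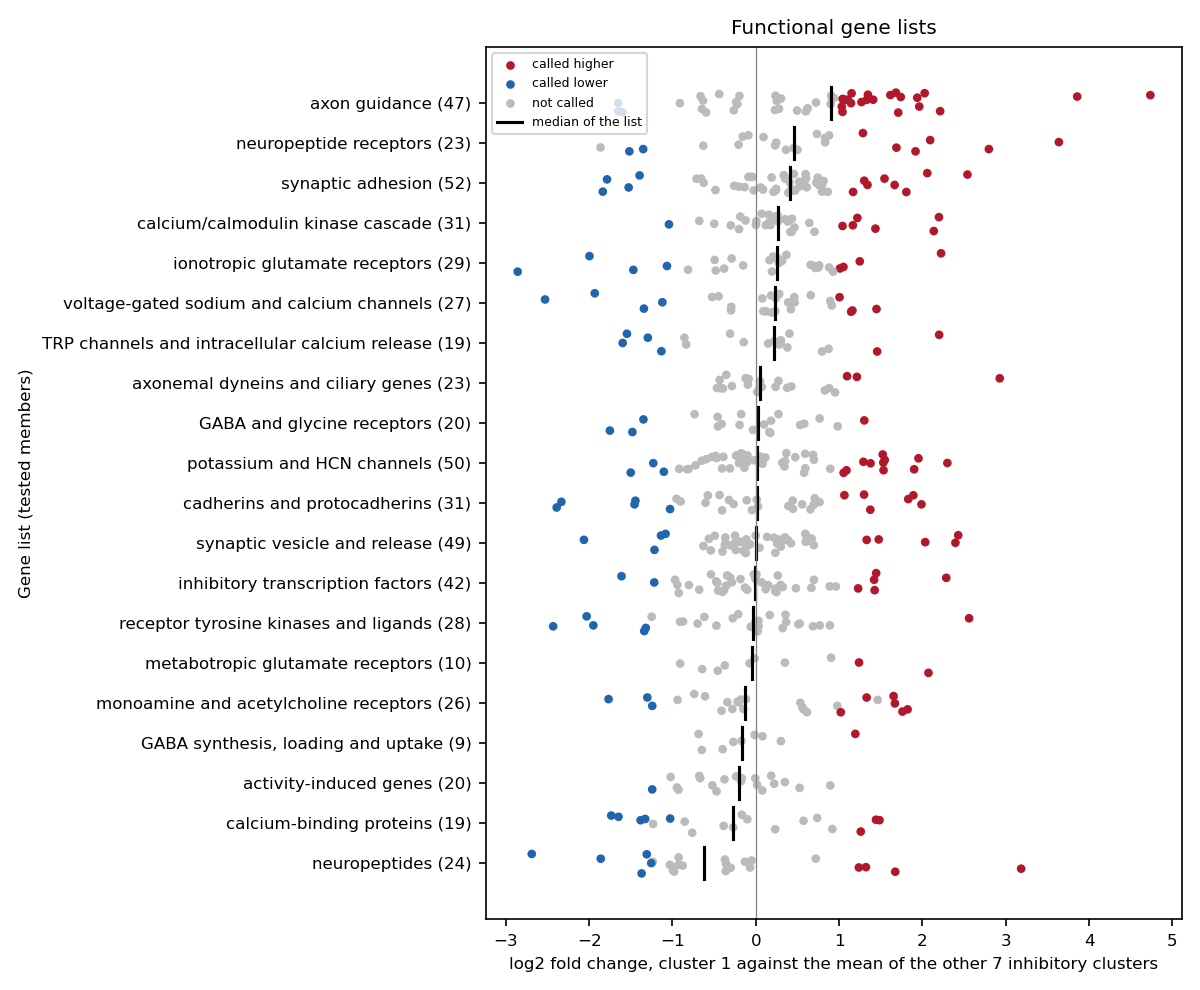
Log2 fold changes, cluster 1 against the mean of the other 7 inhibitory clusters, of every tested member of each functional gene list, with called genes colored by direction and a bar at the list median. Axon guidance has the highest median, 0.91, and neuropeptides the lowest, -0.62.

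Guidance genes moved on the side of the cue and of the receptor. Among cues, Sema5a stood at 200, 209 and 171 CPM with a log2 fold change of 2.21 ± 0.15, Slit3 at 386, 442 and 410 CPM with 1.96 ± 0.28, and Sema3a at 85.0, 110 and 133 CPM with 1.68 ± 0.21. Among receptors, Robo3, a divergent member of the Robo family, stood at 5.56, 12.2 and 6.79 CPM with 3.86 ± 0.31, Epha4 at 220, 244 and 205 CPM with 1.94 ± 0.25, and Epha6 at 2306, 2202 and 2486 CPM with 1.74 ± 0.13. In Sema5a and Epha4 the libraries did not overlap with any other of the class. The 3 lower genes were Sema3e at 42.6, 27.9 and 32.1 CPM with -1.65 ± 0.22, the netrin receptor gene Dcc at 251, 209 and 288 CPM with -1.65 ± 0.22, and the plexin gene Plxna4 at 21.8, 21.4 and 30.6 CPM with -1.60 ± 0.15. Genes of the other netrin receptors, the Unc5 family, did not share the direction of Dcc: Unc5a was higher with 1.62 ± 0.21 and Unc5c with 1.04 ± 0.26.

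The 11 higher genes of the potassium and HCN channel list came from several families, among them 3 Kcnh genes. Kcnh3 stood at 183, 176 and 191 CPM with a log2 fold change of 2.30 ± 0.18, Kcnh5 at 394, 442 and 453 CPM with 1.52 ± 0.13 and Kcnh1 at 175, 182 and 174 CPM with 1.29 ± 0.21, whereas Kcnh8 of the same group stood at 10.8, 11.4 and 17.97 CPM and was lower, -1.5 ± 0.17. Dpp6, an auxiliary subunit of Kv4 channels, was at 4409, 5284 and 5496 CPM with 1.90 ± 0.10, and Kcnmb4, a beta subunit of the large-conductance calcium-activated channel, at 83.7, 77.7 and 89.5 CPM with 1.55 ± 0.17. Of 27 sodium and calcium channel genes 4 were higher and 4 lower, among them the T-type channel gene Cacna1h at 60.1, 55.5 and 47.9 CPM with 1.45 ± 0.16, not called at 0.915 with the nuclei of the other clusters summed, and the auxiliary subunit gene Cacna2d2 at 4.13, 5.08 and 5.50 CPM with -2.53 ± 0.18. Called changes went in both directions within each of these lists.

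The 6 higher genes of the calcium/calmodulin list include Camk4 itself, a marker of the cluster. Camkk2, the kinase that activates Camk4, stood at 147, 126 and 105 CPM with a log2 fold change of 1.22 ± 0.14, and Ppp3ca, the catalytic subunit of calcineurin, at 1441, 1454 and 1240 CPM with 1.17 ± 0.13. Nrgn, the calmodulin-binding protein neurogranin, stood at 421, 360 and 200 CPM with 2.14 ± 0.33, lowest in mouse 3. Camk2a, a kinase of the postsynaptic density, was at 455, 574 and 530 CPM with 1.44 ± 0.16, and Camk2n1, which encodes an inhibitor of that kinase, at 270, 252 and 181 CPM with 1.04 ± 0.24. Its relative Camk2n2 was the lower gene of the list, at 22.7, 25.9 and 18.7 CPM, below all other libraries, with -1.04 ± 0.18, a call that was lost without mouse 1, at -0.998, without clusters 10 and 12, at -0.943, and with the nuclei of the other clusters summed, at -0.852. Summing also ended the calls of Camkk2 and Camk2a, at 0.70 and 0.98. The calcineurin target Nfatc1 was called higher, at 22.7, 33.6 and 25.1 CPM with 2.29 ± 0.27. Clusters 6 and 12 had higher means of it, 36.9 and 29.6 CPM against 27.1 CPM in cluster 1. Against cluster 0, Camk4 and Nfatc1 were called, at 2.03 ± 0.23 and 1.94 ± 0.37, but Camkk2, Ppp3ca, Nrgn, Camk2a, Camk2n1 and Camk2n2 were not.

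Among transcription factors of inhibitory neurons 5 of 42 were higher and 2 lower. Pbx3, a partner of Meis and Hox proteins, stood at 3871, 4020 and 4058 CPM, above the 2956 CPM of the highest other library, with a log2 fold change of 1.43 ± 0.11. Bcl11b, a zinc finger factor known from striatal and deep-layer neurons, was at 236, 200 and 199 CPM with 1.42 ± 0.18, a call that was lost with the nuclei of the other clusters summed, at 0.72. The ETS factor gene Etv1 was lower, at 101, 55.8 and 58.3 CPM with -1.22 ± 0.22 (-0.993 and not called without nuclei of high UMI number), and so was Id2, an inhibitor of bHLH factors, at 17.8, 19.2 and 11.6 CPM with -1.61 ± 0.23. Meis2 itself differed little, with 0.12 ± 0.09.

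Peptide and transmitter receptor genes followed. Tacr1, the receptor for the substance P that Tac1 encodes, stood at 48.6, 82.1 and 92.1 CPM with a log2 fold change of 1.92 ± 0.24, and differed from cluster 0 by 0.14 ± 0.34. Prokr2, the prokineticin receptor of migrating bulb interneurons, was at 30.8, 15.3 and 15.2 CPM with 2.80 ± 0.27, and Oxtr, the oxytocin receptor, at 8.10, 5.41 and 2.38 CPM with 2.09 ± 0.39. Crhr1, the corticotropin-releasing hormone receptor, was lower at 13.5, 19.9 and 16.9 CPM with -1.35 ± 0.24. Among amine receptors, the serotonin receptor gene Htr1f stood at 838, 924 and 973 CPM with 1.67 ± 0.19, and the adrenergic receptor genes Adrb1 and Adra2c had 1.82 ± 0.30 and 1.76 ± 0.28. The metabotropic glutamate receptor gene Grm8 was at 1425, 1114 and 1376 CPM with 2.07 ± 0.13. Cluster 12 had a higher Grm8 mean of 1482 CPM, and cluster 1 differed from it by -0.13 ± 0.20. The GABA type A receptor subunit gene Gabrb2 was lower, with -1.75 ± 0.23. Of the peptides, Penk, the precursor of enkephalins, was at 232, 223 and 178 CPM with 1.67 ± 0.26 and differed from cluster 0 by 0.09 ± 0.39. With the nuclei of the other clusters summed, Tacr1, Htr1f and Penk were not called, at 0.935, 0.978 and 0.88.

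Of 49 tested genes of synaptic vesicles and release 5 were called higher, among them the marker Sv2c, 4 lower and 40 not, and of 31 cadherins and protocadherins 6 were called higher, 5 lower and 20 not, beside 4.57% and 3.09% of all genes. Unc13b, a priming factor of synaptic vesicles, stood at 109, 83.6 and 112 CPM, above the 66.4 CPM of the highest other library, with a log2 fold change of 2.43 ± 0.13, while Syt13, an atypical synaptotagmin, was lower at 3.02, 3.75 and 4.22 CPM with -2.06 ± 0.29. Il1rap, an accessory receptor with a role in synapse formation, was at 69.0, 77.5 and 79.4 CPM with 2.54 ± 0.20 and was called higher against each of the 7 clusters. Cdh4 stood at 362, 396 and 424 CPM with 1.99 ± 0.12, whereas the cadherin genes Cdh7 and Cdh6 were lower, with -2.39 ± 0.29 and -2.33 ± 0.20. Nrxn3, a presynaptic neurexin, was at 16758, 19557 and 18918 CPM with 1.17 ± 0.13, and was not called with the nuclei of the other clusters summed, at 0.773. Of the 28 tested genes of the list of receptor tyrosine kinases and ligands, which leaves out Ror2 and the Eph receptors, 1 was called higher, Fgf10, at 91.5, 105 and 97.7 CPM with 2.56 ± 0.20, and Kit was lower at 1.75, 2.38 and 0.917 CPM with -2.03 ± 0.28.

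Genes of cilia were read as a list that includes Dnah11. Of 23 tested axonemal dynein and ciliary genes 3 were called higher and 0 lower, and the list median was 0.05. The other higher genes were Cfap54 at 26.5, 23.4 and 30.4 CPM with a log2 fold change of 1.21 ± 0.24 and Dnah2 at 19.4, 14.5 and 16.9 CPM with 1.10 ± 0.19, a call that was lost without mouse 1, at 0.994. With the nuclei of the other clusters summed neither was called, at 0.937 and 0.892. Pifo, described above, is not on this list.

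Cluster 0 was the nearest to cluster 1, with a Pearson r of 0.971 between their mean log2(CPM + 1) profiles across 14780 genes, which are not independent, against 0.948 for cluster 12 and 0.910 for cluster 6. Against cluster 0, 652 genes were called higher in cluster 1 (4.41%) and 263 lower (1.78%), the fewest in sum of any of the 7 pairs. Cluster 10 gave 582 higher (3.94%) and 644 lower (4.36%), and cluster 12 gave 620 higher (4.19%) and 631 lower (4.27%). Cluster 3 leaned to higher genes, with 1125 (7.61%) against 601 lower (4.07%), and cluster 8 to lower genes, with 785 higher (5.31%) and 1298 lower (8.78%). The most distant clusters, 6 and 7, gave 1214 higher (8.21%) and 1306 lower (8.84%), and 1110 higher (7.51%) and 1142 lower (7.73%). For every gene in this comparison both groups came from the same 3 animals, and the CPM was lower in cluster 1 in all 3 mice for 31.4% of the genes and higher in all 3 for 29.7%. The leading genes on the higher side were Robo3 with a log2 fold change of 4.12 ± 0.47, March1, a ubiquitin ligase, with 4.05 ± 0.39, Klhl1 with 3.92 ± 0.27, Vat1l with 3.92 ± 0.31 and the large cadherin gene Dchs2 with 3.91 ± 0.26. March1 stood at 286, 198 and 443 CPM and Klhl1 at 389, 286 and 454 CPM in cluster 1. Their plain means over the other 7 clusters were 116 and 262 CPM. Against the mean log level of the class both were also called higher, with 2.39 ± 0.22 and 2.89 ± 0.15, and against 6 of the 7 clusters each. The exceptions were cluster 8 for March1, at a mean of 442 CPM, and cluster 10 for Klhl1, at 1605 CPM. On the lower side, beside Dusp10, stood Fzd6, a Wnt receptor gene, with -3.45 ± 0.53, Crhbp, which binds corticotropin-releasing hormone, with -3.11 ± 0.40, Myo3b with -2.90 ± 0.41 and Gm15322 with -2.90 ± 0.49.

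Guidance genes again held the most calls, with 23 of 47 higher and 2 lower, and 33 of the 47 were higher in all 3 mice, where 4.41% of all genes were called higher, 1.78% lower and 29.7% were higher in all 3 mice. The median log2 fold change of the list was 1.05, beside 0.00 over all genes. Several of the higher genes encode receptors for Slits and netrins. Robo1 stood at 254, 218 and 231 CPM in cluster 1 and at 87.0, 83.9 and 94.3 CPM in cluster 0, a log2 fold change of 1.40 ± 0.13, and Unc5c at 61.8, 61.5 and 88.2 CPM against 13.2, 13.0 and 10.6 CPM, 2.51 ± 0.38. The plexin gene Plxna2 stood at 118, 107 and 114 CPM against 25.02, 26.5 and 18.2 CPM, 2.28 ± 0.22, and Ephb1 at 17.5, 14.5 and 27.1 CPM against 2.61, 4.29 and 2.41 CPM, 2.52 ± 0.39. In all 4 the groups did not overlap. Both lower genes were secreted semaphorins, Sema3c at 42.7, 40.9 and 48.6 CPM against 322, 286 and 309 CPM, -2.79 ± 0.38, and Sema3e with -2.30 ± 0.26. Plxna4, low against the class as a whole, was higher than in cluster 0, by 1.69 ± 0.19. Without mouse 1, 2 or 3 the number of higher guidance genes was 16, 18 or 21.

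Activity-induced genes went the other way. None of 20 was higher than in cluster 0 and 9 were lower, with a median log2 fold change of -1.09, and 19 of the 20 were lower in cluster 1 in all 3 mice, the exception being Bdnf. Of all genes 1.78% were called lower in this comparison and 31.4% were lower in all 3 mice. Fos stood at 7.47, 23.7 and 29.5 CPM in cluster 1 and at 27.3, 69.6 and 92.3 CPM in cluster 0, a log2 fold change of -1.63 ± 0.46. Both clusters were lowest in mouse 1, so the groups overlapped across animals although each animal kept the order. Nr4a1 stood at 13.7, 26.7 and 43.6 CPM against 43.8, 63.7 and 137 CPM, -1.56 ± 0.40, and its groups met but did not overlap. Egr1 stood at 70.7, 97.9 and 76.1 CPM against 148, 209 and 245 CPM, -1.29 ± 0.40, and Npas4, whose induction is tied to calcium entry, at 13.5, 12.5 and 12.1 CPM against 20.4, 33.1 and 36.7 CPM, -1.25 ± 0.29, without overlap. The number of lower genes was 7 without mouse 1, 3 without mouse 2 and 5 without mouse 3, and 11 with mouse as a block. Fos lost its call without mouse 2 or 3, at -1.74 and -1.49, Egr1 without mouse 1 or 3, at -1.39 and -1.03, and Nr4a1 and Npas4 without mouse 2, at -1.70 and -1.18. Against the mean of all 7 clusters 1 gene of the list, Ier2, was lower (-1.24 ± 0.33), and whether handling of the tissue induced these genes was not tested.

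**Figure D4:**
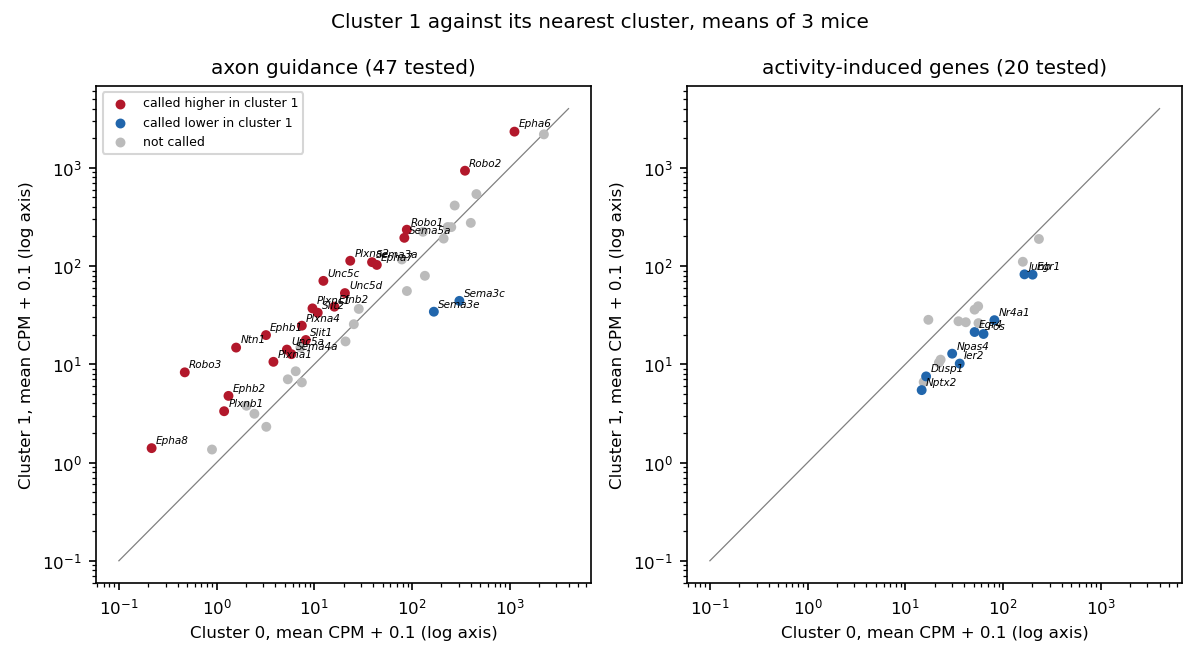
Mean CPM over 3 mice in cluster 0 and in cluster 1, each with 0.1 added and on log axes, for tested axon guidance genes (left) and activity-induced genes (right), with genes called against cluster 0 colored and named. Of the guidance genes 23 lie above the line of equality as called genes, and 9 of 20 activity-induced genes lie below it as called genes.

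Potassium and HCN channel genes differed from cluster 0 in both directions, with 6 of 50 called higher and 4 lower. Of all genes 4.41% were called higher and 1.78% lower in this comparison. Kcnq3, a subunit of the M-current channel, stood at 223, 249 and 235 CPM against 78.7, 73.3 and 53.7 CPM, a log2 fold change of 1.79 ± 0.30. Kcnma1, the pore of the large-conductance calcium-activated channel, went down, at 552, 547 and 496 CPM against 1272, 1215 and 1415 CPM, -1.29 ± 0.19. The GABA-synthesis gene Gad1 was lower too, at 527, 559 and 462 CPM against 1233, 996 and 909 CPM, -1.01 ± 0.22, a call that sits at the threshold and was lost without mouse 1, at -0.91, and without mouse 3, at -0.99. Nrg3, a ligand of Erbb4, was at 1285, 1698 and 1284 CPM with 3.43 ± 0.30 over cluster 0, while against the mean of the class its 0.89 ± 0.19 did not pass.

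Of 9 tested genes of immature neurons 4 were called higher than the mean log level of the class, 5 were not called, and the list median was 0.62, beside 4.57% of all genes called higher. Igfbpl1 stood at 112, 41.6 and 46.8 CPM in cluster 1 and at 14.5, 12.8 and 10.6 CPM in cluster 0, and its log2 fold change against the mean of the class was 2.04 ± 0.19. Sox11 stood at 113, 78.5 and 80.7 CPM with 1.15 ± 0.11, a call lost without mouse 1, at 0.996. Cd24a stood at 22.6, 5.54 and 5.87 CPM with 1.14 ± 0.36, a call lost without mouse 1, at 0.484, with mouse as a block, at 0.934, with nuclei of at least 1500 genes, at 0.796, without clusters 10 and 12, at 0.818, and with the other nuclei summed, at 0.803. Draxin, a secreted guidance protein, was the fourth called gene, at 3.18, 1.69 and 3.85 CPM with 1.43 ± 0.51, a call lost without mouse 1, at 1.53, without mouse 3, at 1.05, and under 5 other alternatives. Mouse 1 was the highest in the first 3 genes and mouse 3 in Draxin, and in cluster 0 of the same mouse Cd24a was at 3.23 CPM. Dcx, the migration marker doublecortin, was at 427, 443 and 465 CPM, and its difference from the class, 0.47 ± 0.15, did not pass the size threshold. Cluster 7 was higher than cluster 1 in Cd24a, at 41.6, 44.9 and 50.1 CPM. Among thinned nuclei, Igfbpl1 was seen in 16.4%, 6.99% and 9.11% of cluster 1 in mice 1, 2 and 3, against 2.77%, 2.45% and 1.91% of cluster 0 and a mean of 0.559% of the projection neurons of cluster 5. Sox11 was seen in 19.4%, 12.7% and 12.6% of cluster 1 against 5.23%, 5.21% and 3.40% of cluster 0. Cd24a was seen in 5.45%, 1.32% and 1.86% of cluster 1, and in 0.438% of cluster 0 on average. For each of these 3 genes the share was higher in cluster 1 than in cluster 0 in every mouse. Other clusters of the class reached the same shares, with Igfbpl1 in 16.3%, 15.5% and 13.6% of cluster 7 and Sox11 in 20.5%, 18.4% and 15.2% of cluster 10.

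Markers of other cell types were read from the same sums. Of 8 projection neuron, 8 astrocyte, 6 oligodendrocyte and 3 microglia markers tested, 0 were called in either direction against the mean of the other clusters, and their summed levels in cluster 1 (119 to 154, 101 to 121, 53.7 to 112 and 34.4 to 42.0 CPM) lay within the range of the other libraries. Vcan, a matrix proteoglycan that oligodendrocyte precursors express, was the exception in its list of 2, at 30.7, 13.0 and 17.6 CPM with 2.08 ± 0.22. Slc1a3, the astrocyte glutamate transporter, was at 69.3, 50.9 and 63.8 CPM in cluster 1 and at a mean of 1944 CPM in cluster 9. It was called higher than in cluster 0, by a log2 fold change of 1.33 ± 0.17, and against 4 of the 7 clusters in all, while it was lower than in cluster 7, at a mean of 517 CPM. The other 7 astrocyte markers were not called against cluster 0. The part of such cells in the levels of Tnc, Vcan, Ntn1 and Sox8 was not tested. Of 4 endothelial or mural markers 1, Rgs5, was called lower, with -1.60 ± 0.49, a call lost without mouse 2, at -1.20, and without mouse 3, at -1.26.

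Nuclei within cluster 1 were not alike. Thinned to 2000 UMIs, 5512 genes had a mean of at least 0.05 UMIs in each mouse, and the median ratio of variance to mean across nuclei was 1.20, where 1 is what random drawing alone gives in nuclei of equal content. In 37 genes the ratio ranked in the top 50 of every mouse. The highest ratio was that of Malat1, an abundant nuclear RNA. Cntnap2, a relative of the neurexins, had ratios of 8.94, 8.92 and 14.5 in mice 1, 2 and 3, Erbb4 of 11.1, 9.22 and 8.42, Macrod2 of 8.13, 8.41 and 11.5 and Lrrtm4 of 7.41, 8.20 and 9.01. The ratio rises with the level of a gene, so it was not compared between clusters. Erbb4, the neuregulin receptor, was missing from 34.0%, 48.6% and 39.4% of the thinned nuclei, yet 13.3%, 6.55% and 8.55% held 10 or more of its UMIs, and Il1rapl2 was missing from 82.0%, 87.8% and 81.8% while 1.52%, 1.05% and 1.12% held that many.

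The variable genes fell into sets that ran together or apart. Across the nuclei of 1 mouse, Erbb4 and Tenm3, a teneurin that guides synaptic partner matching, had a Pearson r of -0.46, -0.45 and -0.48 in mice 1, 2 and 3 (789, 3421 and 538 nuclei), and Erbb4 and Etl4 of -0.48, -0.45 and -0.47, while Etl4 and Tenm3 had 0.45, 0.40 and 0.47. Tenm2 and the neuroligin gene Nlgn1 had 0.57, 0.53 and 0.51, and Lrrc4c, a netrin-G ligand, ran with both, at 0.49, 0.43 and 0.43 with Tenm2 and 0.48, 0.44 and 0.46 with Nlgn1. Kirrel3 and Cntnap2 ran together, at 0.33, 0.41 and 0.35, and Kirrel3 ran against Lrrc4c, at -0.34, -0.35 and -0.34. Of the 190 pairs among the 20 most variable genes other than Malat1, 15 had an r of at least 0.3 in size and of 1 sign in every mouse. The points of each correlation share a library and a fixed number of UMIs, which pulls abundant genes apart, and the 20 genes were chosen for their spread, so these values are a description.

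**Figure D5:**
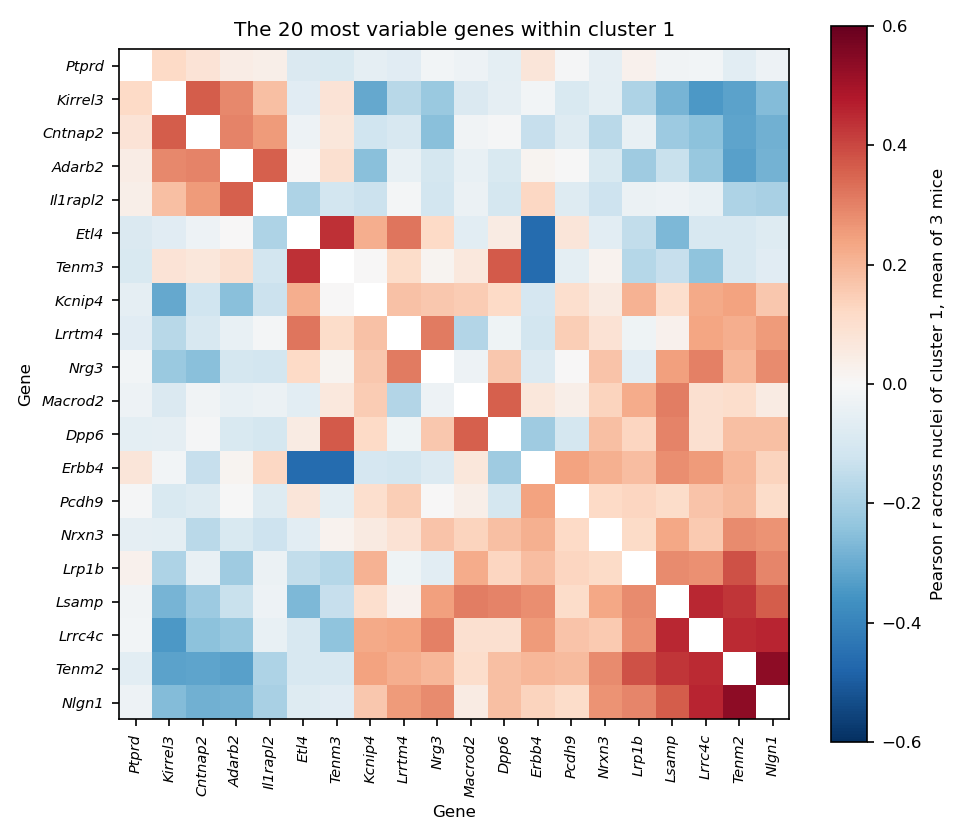
Pearson r across nuclei of cluster 1, on log(UMIs + 1) after thinning to 2000 UMIs per nucleus and averaged over the 3 mice, between the 20 most variable genes other than Malat1, ordered by average-linkage clustering. Erbb4 is blue against Tenm3 and Etl4, and Tenm2, Nlgn1, Lrrc4c and Lsamp form a red block.

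The levels of Tenm3, Etl4 and Erbb4 differed between animals. Tenm3 stood at 3019, 4387 and 3192 CPM and Etl4 at 1740, 3114 and 2120 CPM, both highest in mouse 2, whereas Erbb4 stood at 1642, 1101 and 1523 CPM, lowest there. Nuclei with 10 or more Tenm3 UMIs made up 21.5%, 34.6% and 21.9% of the thinned nuclei of mice 1, 2 and 3. Against the class, Tenm3 and Etl4 were called higher, with log2 fold changes of 1.67 ± 0.17 and 1.35 ± 0.26, and Erbb4, with 0.77 ± 0.16, was not.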

How the data were processed

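Nuclei were sequenced with 10x Chromium Single Cell 3' v3 chemistry. The deposited matrices hold UMI counts per gene and barcode, made by the authors with Cell Ranger 3.0.2 according to the file header, on mm10 (GRCm38) according to the submitters' processing notes. The annotation release, the counting of introns and the use of strand are not given in the sources used here. The deposited metadata gave each nucleus its cluster, its UMI total and its percent of mitochondrial UMIs. The authors removed nuclei in which fewer than 1000 genes were seen or more than 5% of UMIs were mitochondrial, merged the 3 libraries in Seurat and defined 22 clusters. These rules leave 5846, 21105 and 4753 of 7718, 29829 and 6876 barcodes in mice 1, 2 and 3, of which 5845, 21105 and 4753 are listed.

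UMI counts were summed per mouse and cluster (24 libraries of the 8 inhibitory clusters). In cluster 1 these sums held 6276076, 30620246 and 5438225 UMIs. Low genes were removed with filterByExpr, TMM scaling was applied, and edgeR 4.0.16 (R 4.3.3) fitted a quasi-likelihood model over all 24 libraries with Benjamini-Hochberg adjustment over 14780 genes. The code was tested on simulated data. Each mouse gave all clusters, and libraries of the same mouse deviated together (mean r of 0.186 over 84 pairs). Deviations were taken from the mean of each cluster over the mice. The mean r of -0.0909 over 168 pairs from different mice therefore follows from the first value and is no separate contrast. No doublet caller was run, and an alternative left out nuclei above 2 times the median UMI number. Detection was compared after drawing 2000 UMIs from each nucleus.

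Cluster 1, its markers and all gene lists were chosen with earlier results of these data known. Genes were named by rule: the 4 markers, the 12 separated genes of at least 5 CPM leading in each direction, 5 in each direction against the nearest cluster, and from each list at most 4 called members in each direction and the most abundant one. Further list members were named after their values were seen. Alternatives were library size or RLE scaling, DESeq2 1.42.0, no filter, a mouse block, each mouse left out, stricter nuclei, other reference sets and other denominators. Some genes of the lists are not reported here by name.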

Additional observations from a re-analysis of the deposited data

How the results depend on the processing

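The number of genes lower than the mean of the other clusters rose from 456 to 690 when the nuclei of the other clusters were summed, and the number of higher genes was then 458. Summing lets large clusters weigh more, averages levels before the log is taken and leaves fewer libraries in the fit. The share of each in this shift was not tested. Leaving out 1 mouse gave 582 to 663 higher and 321 to 421 lower genes, and 443 to 574 higher and 180 to 209 lower genes against cluster 0. With mouse as a block, the pairing of clusters within animals gave 689 and 507 genes, and 731 and 301 against cluster 0. Of the named genes 155 were called, 106 of them in the same direction in each of 12 other fits, and 0 changed direction. With mouse as a block 1 named gene, Cd24a, lost its call. Summing lost 31, among them Camk2a, Camkk2, Bcl11b, Penk, Tacr1, Htr1f, Nrxn3 and Cacna1h. The share of cluster 1 was 21.8% of the inhibitory nuclei, and 12.4% to 14.9% of all nuclei when 1 mouse was left out. With all UMIs the marker shares were 54.6% for Ankfn1, 71.4% for Camk4, 54.5% for Dnah11 and 47.7% for Sv2c. At 2000 UMIs, leaving out 1 mouse gave 32.0% to 34.4%, 42.3% to 43.8%, 28.2% to 32.3% and 22.7% to 25.7%. Precision rests on 3 mice, and low genes such as Chil5 stood at only 3.02 and 3.62 CPM in cluster 1 of mice 1 and 2.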
